A study of Homo sapiens with 4 samples.

Results

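The MCM genes encode the minichromosome maintenance proteins of DNA replication, and 8 of them were followed here across RNA pulled out of human cells with the microRNA miR-26a. They were taken by name from the 25688 genes or unnamed transcripts of the deposited tables: MCM2, MCM3, MCM4, MCM5, MCM6, MCM7, MCM8 and MCM10. The group was chosen because MCM3 and MCM7 were higher in the tagged pull-out, so the values and calls of the members in that contrast are a description, and no member's difference is put forward as tested. DU-145, an established human prostate cancer cell line that grows without androgen, was the source of every library. In the biotin group, 2 libraries were made after transfection with 60 nM of a mix of miR-26a duplexes that carried biotin at the 3′ end and thiouridine in place of nucleotide 7 or 17. In the control group, 2 libraries were made after transfection with 60 nM of a miR-26a duplex for which the labels name no tag and no thiouridine. Both groups therefore received miR-26a, and in both the cells were irradiated at 365 nm and the RNA was incubated for 4 h with streptavidin beads. The effects of biotin and of thiouridine cannot be told apart, since no group carried one alone. The untagged libraries show what stayed on the beads without a tag. No library of unselected RNA was analysed here.

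MCM2 to MCM7 form a ring that is loaded onto DNA at replication origins before S phase, and together with CDC45 and the GINS proteins this ring becomes the helicase that unwinds DNA at the fork. MCM8 is a relative that acts with MCM9 in repair by homologous recombination, and MCM10 is an unrelated protein that helps to switch the loaded helicase on. A microRNA finds mRNAs by pairing through its seed, nucleotides 2 to 8, usually with a complementary site in the 3′ UTR, and a tagged microRNA can hold such mRNAs on beads.

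From the ratio of coverage to FPKM (fragments per kilobase of transcript, scaled to the number of mapped fragments) the libraries held an estimated 16030000 to 23640000 mapped reads, at which 3 reads on a transcript of 1 kb correspond to 0.127 to 0.187 FPKM, a floor that covers counting error only. All 12 epithelial markers of DU-145 that were listed reached 1 FPKM in every library, among them KRT8 and KRT18. Their summed level was 1065 and 888 FPKM in the biotin libraries, against 1914 and 1742 FPKM in the control libraries, most of it from S100A6. The other 11 summed to 233 and 243 FPKM in the biotin libraries, against 192 and 232 FPKM in the control libraries. Among these, CD44 was at 53.9 and 59.3 FPKM in the biotin libraries, against 10.8 and 13.8 FPKM in the control libraries, and EGFR at 31.6 and 37.3 FPKM in the biotin libraries, against 15.9 and 16.7 FPKM in the control libraries. KLK3, KLK2 and FOLH1, which mark luminal prostate cells, were listed at 0 in every library, as were PTPRC, CD3E and HBB of blood cells, and no fibroblast marker reached 1 FPKM. The 5 blood cell markers summed to 2.57 and 1.30 FPKM in the biotin libraries, against 0.675 and 0.372 FPKM in the control libraries, mostly CD14, and what part such RNA had in the results was not tested. In bulk libraries of this kind, fewer cells that hold an RNA and less of that RNA per cell cannot be told apart.

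The sequence used for the pull-out and the places in MCM mRNAs that match its seed come first, since they show which members could pair with it in the usual way. Mature miR-26a-5p, from RefSeq (GRCh38.p14), is encoded at chr3:37969413-37969434 on the plus strand (MIR26A1) and at chr12:57824658-57824679 on the minus strand (MIR26A2). The capitals mark its seed.
miR-26a-5p: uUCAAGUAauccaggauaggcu
The seed pairs with TACTTGA in an mRNA, and nucleotides 2 to 7 alone pair with ACTTGA, which lies within it. These letters were searched on the sense strand of the GENCODE 29 transcript matched to each gene's most abundant row. The lines below give the 3 matches to the whole seed and the 3′ UTR matches to ACTTGA in MCM2 and MCM10, with the matching bases in capitals.
MCM8 3′ UTR: gaatacaaaaTACTTGAgttttgtttt
MCM8 coding sequence: aatacttccgTACTTGAagtagtttct
MCM6 coding sequence: tgttaactggTACTTGAaggaaatcga
MCM2 3′ UTR: aaaccagagcACTTGAtgaactcggg
MCM10 3′ UTR, first: accagaaagcACTTGAaactgatgtt
MCM10 3′ UTR, second: tcacaacagaACTTGAacaccaggtt

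Neither MCM3 nor MCM7, the members with higher values in the biotin libraries, held either site in the 5′ UTR, the coding sequence or the 3′ UTR. The MCM3 transcript searched had a 3′ UTR of 574 bases and the same length as its deposited row, 3208 bases. The MCM7 transcript had a 3′ UTR of 151 bases, the shortest of the members, and was 53 bases shorter than its row, a difference that was not searched. Their other detected rows, NM_001270472 of MCM3 and NM_001278595 of MCM7, held neither site in the matched transcripts, although 572 bases of the MCM3 row had no counterpart there. MCM4 also had no site in a transcript 694 bases shorter than its row.

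In the 3′ UTR, 1 of 8 members held TACTTGA, MCM8, at base 797 of 815. That transcript was 54 bases longer than the main MCM8 row. All MCM8 rows are listed with the same start and end, and another of them has the transcript's 3769 bases. Where the 54 bases lie was not determined, so the match, close to the transcript's end, was not placed against the main row. Among the 9319 genes searched, 11.9% held that site in the 3′ UTR. The shorter ACTTGA stood in the 3′ UTR of 4 members (MCM2, MCM5, MCM8 and MCM10), and in that of 34.3% of the genes searched. Both MCM5 matches lay at bases 2749 and 3484 of the GENCODE transcript, beyond the 2546 bases of the deposited row. In coding sequence, MCM6 and MCM8 held TACTTGA, each followed by an A, the base that extends such a site, and 6.7% of the genes searched held it there. The 4 members with a match at a position within their main row's length (MCM2, MCM6, MCM8 and MCM10) all had overlapping biotin and control values. A match of letters is a description and not a bound site.

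**Figure D1:**
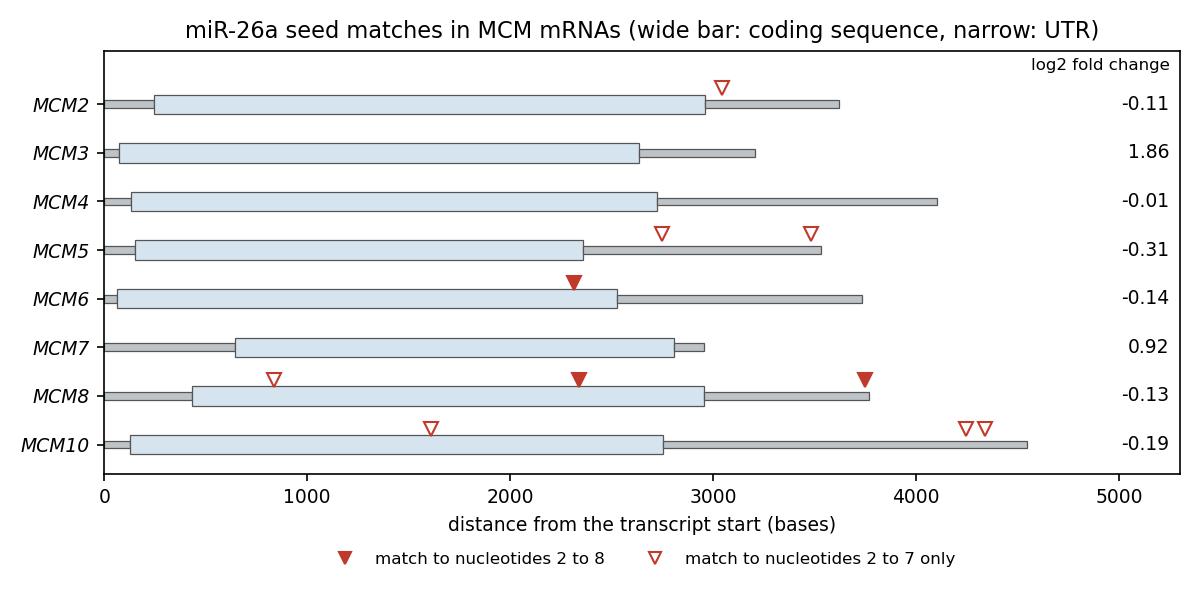
The 8 MCM mRNAs are drawn to scale from their start (horizontal axis, bases), with the coding sequence as a wide bar and the UTRs as narrow bars; filled triangles mark matches to miR-26a nucleotides 2 to 8, open ones matches to nucleotides 2 to 7 only, and the number at the right is the log2 fold change of FPKM + 1, biotin minus control. MCM3 (1.86) and MCM7 (0.92) carry no triangle.

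Of the ring subunits, MCM3, which in budding yeast contacts the origin recognition complex and Cdc6 during loading, had the highest level in the biotin libraries. It was at 60.1 and 52.1 FPKM in the biotin libraries, against 15.2 and 14.2 FPKM in the control libraries. The mean level was 56.1 ± 5.67 FPKM in biotin and 14.7 ± 0.648 FPKM in control libraries (SD, n = 2 each), a ratio of 3.82. The groups did not overlap, and even the lower biotin library was 3.44 times the higher control. On the log2(FPKM + 1) scale, which understates the change of low genes, the difference was 1.86 ± 0.18 (limma standard error), the 210th largest of 9940 tested genes. Its locus is chromosome 6, 52264014 to 52284881 (hg38).

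MCM7, a core subunit of the helicase whose gene hosts a cluster of microRNAs in an intron, was at 34.7 and 27.4 FPKM in the biotin libraries, against 15.4 and 16.3 FPKM in the control libraries. The mean level was 31.1 ± 5.16 FPKM in biotin and 15.8 ± 0.630 FPKM in control libraries (SD, n = 2 each), a ratio of 1.97. The groups did not overlap here either, with the lower biotin library 1.69 times the higher control, and the log2 difference was 0.92 ± 0.19 (limma standard error). Its locus is chromosome 7, 100092728 to 100101940 (hg38).

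The other ring subunits had smaller differences. MCM4, which with MCM6 and MCM7 makes up a subcomplex of the ring, was at 20.6 and 30.7 FPKM in the biotin libraries, against 22.1 and 29.01 FPKM in the control libraries. The groups overlapped throughout, and the replicates differed more than the groups did (mean level 25.6 ± 7.14 FPKM in biotin and 25.6 ± 4.89 FPKM in control libraries, SD, n = 2 each). MCM2, the subunit that also binds histones H3 and H4, was at 8.91 and 9.96 FPKM in the biotin libraries, against 10.6 and 9.82 FPKM in the control libraries, so that the groups overlapped. MCM6 was at 9.46 and 5.87 FPKM in the biotin libraries, against 8.82 and 7.84 FPKM in the control libraries. The biotin values of MCM6 lay on either side of the control values, and they differed 1.61-fold between replicates.

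MCM5, which sits next to MCM2 at the gate through which the ring is loaded onto DNA, was the member with both biotin libraries below both controls. It was at 12.2 and 12.2 FPKM in the biotin libraries, against 14.8 and 15.8 FPKM in the control libraries, with a log2 difference of -0.31 ± 0.16 (limma standard error). Among all tested genes, 37.7% lay below both controls in this way and 29.4% above both, so such separation was common.

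The members outside the ring were low in every library. MCM8 was at 2.11 and 2.02 FPKM in the biotin libraries, against 1.99 and 2.75 FPKM in the control libraries. MCM10 was at 1.87 and 2.36 FPKM in the biotin libraries, against 2.27 and 2.83 FPKM in the control libraries. Both overlapped between groups. MCM8, whose whole seed match in the 3′ UTR was not placed against its main row, had a log2 difference of -0.13 ± 0.16 (limma standard error).

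**Figure D2:**
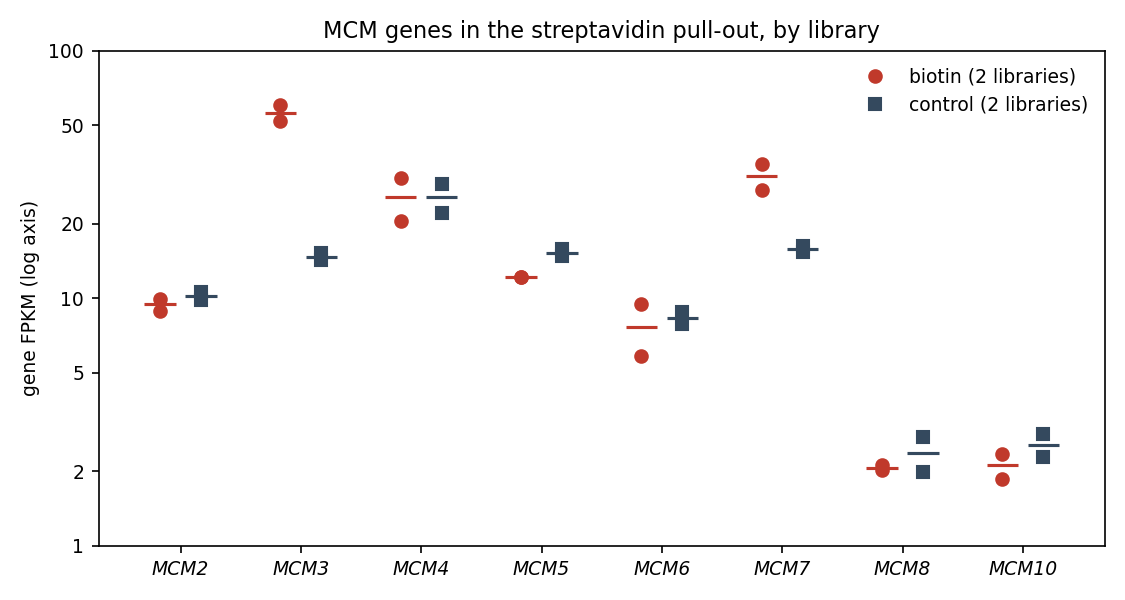
Gene FPKM (log axis) of the 8 MCM genes in each library, with red circles for the 2 biotin and dark squares for the 2 control libraries and a line at each mean. The biotin libraries lie above the controls for MCM3 (52.1 and 60.1 against 14.2 and 15.2 FPKM) and MCM7 (27.4 and 34.7 against 15.4 and 16.3 FPKM), and MCM5 is the only member with both biotin values below the controls.

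All 8 members passed the filter on low values (at least 1 FPKM in at least 2 libraries), each of them in both groups. In limma at a Benjamini-Hochberg adjusted p of 0.05, 2 members were called higher, MCM3 and MCM7, against 13.1% of all tested genes. With limma 0 were called lower, against 9.32% of all tested genes. At an unadjusted p below 0.05 the limma count of lower members was also 0, against 19.8% of all tested genes, and it was 1 (MCM5) with upper-quartile scaling or with the midpoints of the deposited confidence bounds. Because the group was chosen on this contrast, nothing is read from these counts. Of all calls 58.5% were increases, and 46.9% with upper-quartile scaling. MCM7, just inside the threshold, stood at 0.92 on the log2 scale, and the members outside it lay between -0.31 and -0.01. The median over the 8 members was -0.12, against -0.06 over all tested genes. The call of MCM3 was lost without control replicate 1 (log2 difference 1.90). That of MCM7 was lost without biotin replicate 1 (0.76), control replicate 1 (0.89) or control replicate 2 (0.96).

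Since the ring holds MCM2 to MCM7 in equal numbers, their levels were also compared with each other, on the FPKM scale, which is per length. In the control libraries the order was MCM4 (25.6 FPKM), MCM7 (15.8), MCM5 (15.3), MCM3 (14.7), MCM2 (10.2) and MCM6 (8.33), with MCM10 (2.55) and MCM8 (2.37) last. The control values of MCM7 overlapped those of MCM5, those of MCM5 overlapped those of MCM3, and those of MCM10 overlapped those of MCM8. In the biotin libraries MCM3 came first (56.1 FPKM), followed by MCM7 (31.1) and MCM4 (25.6), whose values overlapped. MCM5 (12.2), MCM2 (9.44) and MCM6 (7.66) followed, the last 2 of which overlapped, and MCM10 (2.11) and MCM8 (2.07) were again last and overlapped. This order holds on FPKM, and it differed on the midpoints of the deposited confidence bounds, on which MCM6 and MCM7 stood higher.

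The summed level of MCM2 to MCM7 was 146 and 138 FPKM in the biotin libraries, against 86.8 and 93.0 FPKM in the control libraries. MCM3 made up 41.2% and 37.7% of that sum in the biotin libraries, against 17.5% and 15.3% in the control libraries. The sum of MCM2, MCM4, MCM5 and MCM6 was 51.2 and 58.7 FPKM in the biotin libraries, against 56.3 and 62.5 FPKM in the control libraries, so these values overlapped. The ratio of the highest to the lowest ring subunit was 6.75 and 8.89 in the biotin libraries, against 2.51 and 3.70 in the control libraries.

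**Figure D3:**
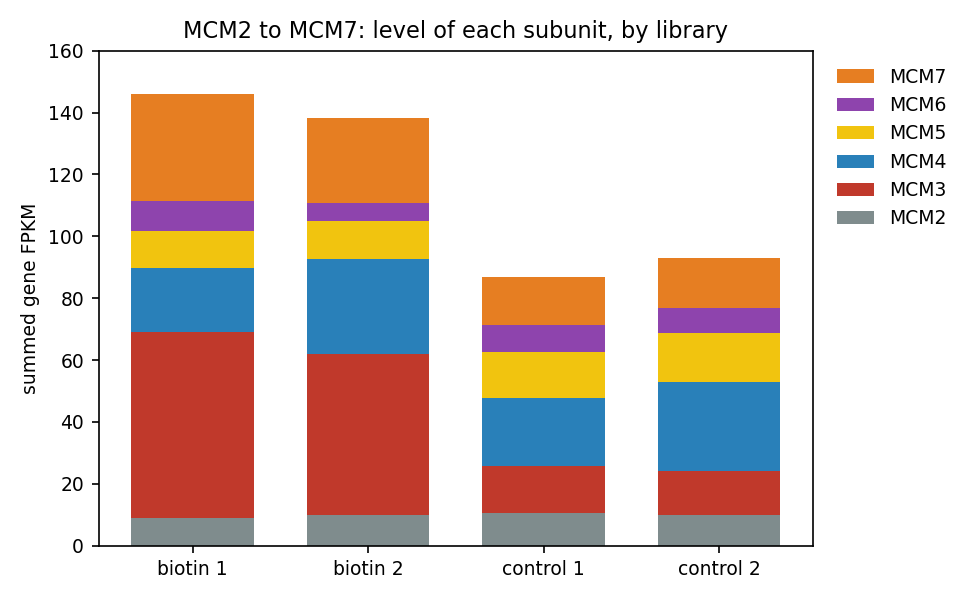
Stacked bars give the gene FPKM of MCM2 to MCM7 in each library. The bars reach 146 and 138 FPKM in the biotin libraries, against 86.8 and 93.0 FPKM in the controls, and the red segment of MCM3 and the orange one of MCM7 are the ones that are taller in both biotin libraries.

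The gene values are sums over RefSeq transcript rows, and these rows did not all behave alike. The main MCM3 row, NM_002388, was at 47.6 and 52.1 FPKM in the biotin libraries, against 15.2 and 14.2 FPKM in the control libraries, so it alone separated the groups. The other MCM3 row, NM_001270472, was at 12.5 FPKM in biotin replicate 1 and listed at 0 in the other 3 libraries. The main MCM7 row, NM_005916, was at 24.2 and 27.4 FPKM in the biotin libraries, against 8.10 and 13.2 FPKM in the control libraries, and it too was higher in both biotin libraries. The second MCM7 row, NM_001278595, was at 10.5 and 0 FPKM in the biotin libraries, against 7.26 and 3.09 FPKM in the control libraries, without separation. A further MCM7 row, NM_182776, was listed at 0 throughout.

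The same splitting occurred in members whose groups overlapped. The second MCM4 row, NM_005914, had 0 and 5.54 FPKM in the biotin libraries, against 6.15 and 0 FPKM in the control libraries. The second MCM10 row and the row NM_001281520 of MCM8 were above 0 in control replicate 2 alone (1.41 and 1.48 FPKM). How the authors' program divided reads between overlapping rows is not given in the sources used here. In a fit to single rows, MCM3 remained called higher and MCM7 was not called.

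**Figure D4:**
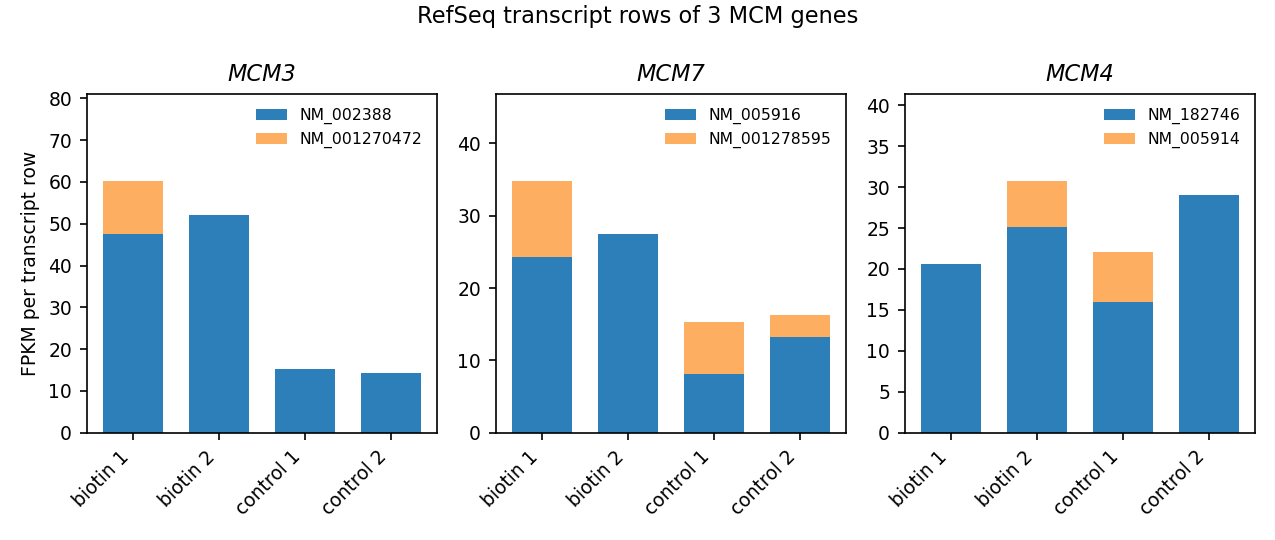
Stacked bars give the FPKM of each detected RefSeq row of MCM3, MCM7 and MCM4 by library (vertical axes differ between panels). The main MCM3 row is at 47.6 and 52.1 FPKM in biotin, against 15.2 and 14.2 FPKM in control libraries, while the second rows are present in some libraries and at 0 in others.

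The deposited confidence bounds add a limit on the levels of MCM5, MCM6 and MCM7. The FPKM of MCM6 lay below its own bounds in all 4 libraries, with the midpoint of the bounds at 2.18 and 2.08 times the FPKM in the biotin libraries, against 1.74 and 2.01 times in the control libraries. The main MCM7 row lay below its bounds in the same way, with midpoints 1.63 and 1.66 times the FPKM in the biotin libraries, against 1.62 and 1.66 times in the control libraries. MCM5 lay above its bounds in both biotin libraries, with midpoints 0.858 and 0.835 times the FPKM, and inside them in both control libraries, with midpoints 0.916 and 1.02 times the FPKM. Its log2 difference on the midpoints was -0.48, against -0.31 on FPKM, and it was not called on either. Across all rows above 1 FPKM, 31.2% to 34.2% per library lay outside their own bounds. With the midpoints in place of FPKM, MCM7 summed to 56.3 and 45.4 in the biotin libraries, against 24.6 and 26.7 in the control libraries, a ratio of 1.98, while MCM6 summed to 20.6 and 12.2 in the biotin libraries, against 15.4 and 15.8 in the control libraries. The MCM7 difference was therefore of like size on either value, while MCM6 lay above MCM2 in every library on the midpoints, and on FPKM in biotin replicate 1 alone.

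The genes that load, switch on and follow the helicase were examined as lists of 54 other replication genes, of which 52 were tested. Of these 6 were called higher and 8 lower (limma, adjusted p below 0.05), and 38 did not pass; over all tested genes 13.1% were called higher and 9.32% lower. At an unadjusted p below 0.05 (limma), 8 of the 52 were higher and 16 lower, against 19.5% and 19.8% of all tested genes. The median log2 difference of the 52 was -0.21, against -0.06 over all tested genes. Among 10 origin licensing genes 2 rose and 2 fell, and at an unadjusted p below 0.05 (limma) 3 were higher and 2 lower. ORC6, a subunit of the origin recognition complex, was at 5.27 and 5.53 FPKM in the biotin libraries, against 2.16 and 3.01 FPKM in the control libraries. CDC6, which brings the MCM ring to that complex, was at 7.91 and 7.70 FPKM in the biotin libraries, against 4.48 and 3.73 FPKM in the control libraries. GMNN, the inhibitor of origin licensing, was at 8.60 and 7.73 FPKM in the biotin libraries, against 13.2 and 14.1 FPKM in the control libraries. ORC3, another subunit of the complex, also fell, with a log2 difference of -0.56 ± 0.14 (limma).

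Among 14 genes that switch the helicase on, 0 rose and 1 fell in limma. At an unadjusted p below 0.05, 0 were higher and 4 lower, against 19.5% and 19.8% of all tested genes. The one that fell was DBF4, the activating subunit of the kinase CDC7, at 1.08 and 1.34 FPKM in the biotin libraries, against 2.72 and 2.98 FPKM in the control libraries. CDC45, a partner of the ring in the active helicase, was at 2.92 and 3.54 FPKM in the biotin libraries, against 3.31 and 3.03 FPKM in the control libraries, which overlapped. The 4 GINS genes, the other partners, had log2 differences between -0.54 (GINS2) and -0.05 (GINS4), none past the threshold.

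Among 26 tested genes of the replication fork, 4 rose and 5 fell. At an unadjusted p below 0.05 (limma), 5 were higher and 10 lower, against 19.5% and 19.8% of all tested genes. The largest increase was that of RFC1, the large subunit of the clamp loader, at 25.3 and 30.7 FPKM in the biotin libraries, against 6.26 and 6.47 FPKM in the control libraries (log2 difference 1.97 ± 0.18, adjusted p = 0.00151, limma). RFC5, a small subunit of the same loader, was at 18.5 and 14.4 FPKM in the biotin libraries, against 5.90 and 5.37 FPKM in the control libraries (1.38 ± 0.18, adjusted p = 0.00552, limma). The other loader subunits RFC2, RFC3 and RFC4 had log2 differences of -0.29, 0.03 and -0.25 and did not pass, so unequal values among subunits were seen here as they were in the MCM ring.

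POLA2 of polymerase alpha (0.99 ± 0.20) and POLD1, the catalytic subunit of polymerase delta (0.62 ± 0.17), also rose. POLE2 (-0.84 ± 0.16) and POLE3 (-0.85 ± 0.22) of polymerase epsilon, the single-strand binding subunit RPA1 (-0.66 ± 0.17), PRIM1 of primase (-0.62 ± 0.17) and POLD3 of polymerase delta (-0.53 ± 0.14) fell. Adjusted p lay between 0.00151 and 0.0426 for the 6 increases in the lists and between 0.0150 and 0.0458 for the 8 decreases (limma). Of the most abundant genes that did not pass, POLD2 was at 30.9 and 35.6 FPKM in the biotin libraries, against 21.3 and 21.0 FPKM in the control libraries. PCNA, the sliding clamp, was at 14.5 and 13.0 FPKM in the biotin libraries, against 20.2 and 21.2 FPKM in the control libraries, and POLE4, RFC4, MCMBP and POLD4 had log2 differences between -0.77 and -0.15.

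With a library left out, RFC1 passed in all 4 fits, and RFC5 passed without either biotin library but not without control replicate 1 or 2 (adjusted p = 0.0688 and 0.0690, limma). The other 12 calls in these lists were lost in each of the 4 fits. MCM9, the partner of MCM8, and HROB, which works with both, were tested and did not pass, with log2 differences of 0.13 and 0.23. CLSPN and MCMDC2 were below the filter, and MCMDC2 was listed at 0 in every library.

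**Figure D5:**
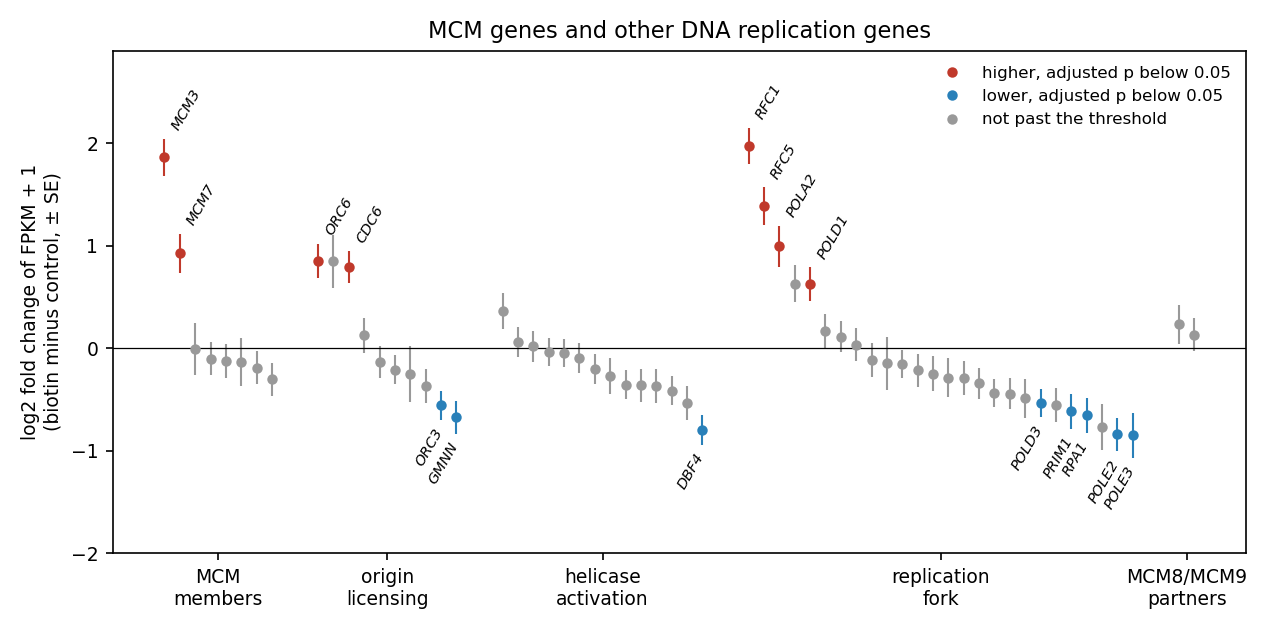
Each point is a gene's log2 fold change of FPKM + 1, biotin minus control, with its limma standard error; the MCM members stand at the left and 52 other replication genes follow by list, red for called higher, blue for called lower and grey for not past the threshold. RFC1 (1.97) lies beside MCM3 (1.86) in size, and the other MCM members, MCM7 (0.92) aside, lie between -0.31 and -0.01.

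Genes next to the members were compared because overlapping transcripts can share reads, and the strand setting of the counting is not given in the sources used here. TPRA1, which starts 179 bases from MCM2, was at 71.3 and 44.8 FPKM in the biotin libraries, against 16.7 and 23.0 FPKM in the control libraries. It rose by 1.48 ± 0.28 on the log2 scale (adjusted p = 0.0179, limma), while MCM2 overlapped between groups. That call was lost without biotin replicate 1, control replicate 1 or control replicate 2 (adjusted p = 0.0699, 0.118 and 0.0827, limma).

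AP4M1, which overlaps MCM7 by 604 bases in the RefSeq table, was listed at 0 in every library. COPS6, 540 bases from the other end of MCM7, was at 22.7 and 19.2 FPKM in the biotin libraries, against 26.6 and 28.5 FPKM in the control libraries, and did not pass (adjusted p = 0.173, limma). The microRNA precursor rows inside MCM7 gave little: MIR93 and MIR106B were listed at 0 in every library, and MIR25, a row of 84 bases for which values per kilobase are unstable, was listed at 179 FPKM in control replicate 1 and at 0 elsewhere. PRKDC, 804 bases from MCM4, had a failed estimate in control replicate 1 and was not tested. TRMT6, 118 bases from MCM8, did not pass (log2 difference -0.27), and MCM8-AS1, which overlaps MCM8, was listed at 0 in every library.

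Genes with the pattern most like that of MCM3 or MCM7 were found by the Euclidean distance between log2(FPKM + 1) profiles over the 4 libraries, each centred on its own mean. The 5 nearest to MCM3 were PSAP, DUS4L, PAXX, STX6 and N4BP2L2, at distances of 0.04 to 0.11. PSAP, the precursor of the lysosomal saposins, was at 421 and 357 FPKM in the biotin libraries, against 112 and 104 FPKM in the control libraries. The 5 nearest to MCM7 were TRAPPC14, WDR62, DTYMK, PDXK and SDE2, at distances of 0.04 to 0.06. TRAPPC14 was at 7.32 and 5.76 FPKM in the biotin libraries, against 2.96 and 3.11 FPKM in the control libraries, and it lies on the same chromosome as MCM7, with 53025 bases between them in GRCh38.p14. The other 9 lay on other chromosomes than the member they resembled. Within a distance of 0.2 lay 18 genes for MCM3 and 89 for MCM7, so the named genes were not alone in these patterns. These likenesses rest on 4 libraries and are a description.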

How the data were processed

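Per the labels' protocols, RNA recovered on streptavidin beads was made into TruSeq Stranded Total RNA libraries and read from one end over 50 bases. The submitters' processing notes name Cufflinks 2.1.1, Cuffdiff, TopHat2 2.0.9, cutadapt and FastQC 0.10.1, and build hg38; the sources used here give no roles, settings, annotation or strandedness. For each library the authors deposited 53209 transcript rows, whose values and confidence bounds are FPKM per the file headers. The deposited coverage signal served here only to estimate depth, and the deposited length, the other value used, only to describe rows. No counts were used, so counting intervals are not given.

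RefSeq accessions were named through the RefSeq table (GRCh38.p14) or GENCODE 29 (98.6% of 46699), and FPKM was summed per gene. The 22 genes with a row of failed or excess-data status were left out, as were short structured RNA genes. Genes with at least 1 FPKM in at least 2 libraries were tested with limma 3.58.1 in R 4.3.3 (variance trend) on log2(FPKM + 1), two-sided, with Benjamini-Hochberg adjustment over 9940 genes; 2 residual degrees of freedom were joined by a prior of 4.2. An exact permutation test on 2 libraries a group cannot go below p = 0.333. The script was tested on simulated data. The series design names biological replicates.

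The members, lists and tests were chosen with earlier results of these data known. Named were all members, every replication gene past the threshold (up to 12 per direction) and the 6 most abundant of those that were not, genes within 1000 bases of a member, and the 5 nearest patterns of MCM3 and of MCM7. RFC2, RFC3, CDC45, the GINS genes, MCM9, HROB, CLSPN and MCMDC2 were named after their values were seen. Alternatives were other pseudocounts, filters and scalings, single rows, a replicate block and each library left out; the midpoint of the bounds was added after seeing the data.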

Additional observations from a re-analysis of the deposited data

How the results depend on the processing

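Of 72 fold changes of single members under alternative settings, 67 moved by less than the spread between replicates. The gene differences of MCM3 (1.63 to 1.96 on the log2 scale) and MCM7 (0.76 to 1.09) kept their direction in all 9 settings each. Both were chosen for that direction and the settings reuse the same libraries, so this is a description. Among single rows, the main MCM7 row had a log2 difference of 1.24 ± 0.28 and the second one -0.78 ± 1.38 (limma standard error). The gene differences of MCM4, MCM6 and MCM8, none called, changed sign in 3, 2 and 1 of the 9. The median over the members stayed between -0.18 and -0.02. Without a filter on low values, 1 member (MCM3) was called higher, 2 replication genes higher and 1 lower, and of all 16113 genes 653 higher and 230 lower. With single transcript rows, 1 member (MCM3), 1 replication gene higher and 1 lower were called, POLD1 by different rows, and genes with a row called numbered 327 higher and 140 lower. With median-of-ratios scaling 7 replication genes were higher and 4 lower, and with upper-quartile scaling 5 were higher and 12 lower, as were 1224 and 1386 of all genes. Under the replicate block 3 replication genes and 534 of all genes were lower, and MCM3 and MCM7 were called; the deviations of replicate 1 in the groups correlated at 0.002 across genes, and the labels name no shared batch. With each library left out in turn, limma called 0 to 2 members higher, 1 to 3 replication genes higher and 0 lower (9 to 10 at an unadjusted p below 0.05), and 190 to 680 of all genes higher and 32 to 223 lower. Such a fit assumes that the lone library varies like the others, and why calls were lost was not tested. Matching nucleotides 2 to 7 in place of 2 to 8 gave a 3′ UTR site in 4 members in place of 1. MCM8 and MCM10, near 2 FPKM, rest on the fewest reads per base of the members.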

Other observations

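Pairing outside the seed was looked at after the absence of seed matches in MCM3 and MCM7 had been seen, as the longest unbroken run of mRNA bases complementary to any part of mature miR-26a-5p. In MCM3 the longest run was TATCCTGG in the coding sequence, complementary to nucleotides 11 to 18 of the microRNA, and in MCM7 it was CTATCCTG in the coding sequence, complementary to nucleotides 12 to 19. Where a transcript held several runs of its longest length, only the one pairing nearest the 3′ end of the microRNA was kept. The position of a run is therefore partly set by the search. Nucleotide 17, where a part of the tagged duplexes carried the thiouridine, lay within both runs. It also lay within the longest runs of MCM4, MCM8 and MCM10, and outside those of MCM2, MCM5 and MCM6. Nucleotide 7, the other thiouridine position, lay within the longest runs of MCM2 and MCM6. It lay outside those of the other members, MCM3 and MCM7 included. Runs of at least 8 bases occurred in 47.0% of the 9319 mRNAs searched, and longer mRNAs offer more chances. Members whose groups overlapped held runs as long or longer: MCM8 had TATCCTGGA in the 5′ UTR, complementary to nucleotides 10 to 18, and MCM10 had ATCCTGGA in the coding sequence, complementary to nucleotides 10 to 17. MCM5 and MCM6 also had longest runs of 8 bases, complementary to nucleotides 8 to 15 and 1 to 8. MCM2 and MCM4 had longest runs of 7 bases, which 87.2% of the mRNAs searched reached. No relation of these runs to the values was tested.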
